A study of Mus musculus with 20 samples.

Results

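Type I interferon stimulated genes are the genes that cells switch on after type I interferon reaches them. In this mouse model of UV-induced skin cancer they stood higher in actinic keratoses (AK) than in normal skin (NS), and the cutaneous squamous cell carcinomas (cSCC) differed from each other. The set was chosen by name as 36 mouse genes, of which 35 were found among the 22090 genes of the count table, and Mx2 is not analysed here. In AK vs. NS, 17 of the 34 tested genes were higher, while 2.26% of all genes tested were, and all 34 had a positive fold change. In cSCC vs. NS, 3 of 34 genes were higher, namely Irf7, Ifit2 and Rsad2, a smaller share than the 11.7% of all genes tested. In cSCC vs. AK, 6 of 35 genes were lower, among them Stat2, Ifih1 and Parp9, while 8.34% of all genes tested were, and Irf7 was higher.

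As background, a type I interferon binds the receptor formed by Ifnar1 and Ifnar2, and the receptor's kinases phosphorylate Stat2. With Irf9 it forms part of a complex called ISGF3, which enters the nucleus and binds a short DNA element in front of its target genes. The products of these genes detect foreign or misplaced nucleic acid, block viral RNA and proteins, and feed back on the pathway itself.

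RNA was sequenced from 8 NS, 8 AK and 4 cSCC tissues of SKH-1 mice, females from a hairless strain whose skin forms tumors under ultraviolet light. In the paper the mice were 7 months old when divided into groups, and tissue was taken weeks later, after the irradiation had ended. Of 8 mice, 4 were left without light and 4 received ultraviolet light, and the 4 irradiated mice gave every AK and every cSCC. NS therefore joins skin from unirradiated mice with uninvolved skin from irradiated mice, AK joins lesions of different grades, and the 8 AK samples stand for 4 mice. The labels tell neither the mouse nor the irradiation of a sample apart, so samples were treated as independent and p-values may be too small.

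The libraries held 775750 (cSCC 20) to 14055206 (AK 10) counts. CPM are counts divided by the scaled size of their library. A level of 3 counts corresponds to at most 3.78 CPM (in AK 12) and at least 0.225 CPM (in AK 10), which is counting error only. Keratinocyte markers were detected in every sample, with a sum of 3720 CPM or more. Some cSCC libraries stood apart. In cSCC 21 the summed heart muscle markers reached 47784 CPM, against 65.6 CPM at most in AK, and in cSCC 20 the summed lung epithelium markers reached 35369 CPM, against 51.7 CPM at most in AK. The scaling factor of cSCC 18 was 0.509, against 0.852 to 1.14 in the other cSCC, which raises all of its CPM. Calls that were lost when one of these libraries was left out are named, or counted among the fits without 1 sample, beside the result.

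The element bound by ISGF3 was looked for in the sequence in front of each gene, using RefSeq promoter windows of 250 bases before to 50 bases after the start on GRCm38.p6, which matched 27 of the 35 genes. The letters searched were GAAANNGAAA on both strands, where N is any base. They occurred in 14 of the 27 genes (51.9%), whereas 3.44% of all 32851 promoter windows of this length held them. A match is a description of the letters and not a measured binding site.

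The 250 bases before the start are shown for 6 genes of the set, of which Isg15 was not called in any comparison. Each is printed in the direction of the gene, with bases of the first motif in capitals. Stat2 (chr10:128270248-128270497, plus strand) has 1 match, which begins 222 bases before the start. Isg15 (chr4:156200819-156201068, minus strand) has 3 matches that overlap. Ifit1 (chr19:34640639-34640888, plus strand) has 2 separate matches, Rsad2 (chr12:26456453-26456702, minus strand) has 1 and Oas3 (chr5:120777660-120777909, minus strand) has 1. Irf7 (chr7:141266425-141266674, minus strand) has none in the window and is shown because it moved apart from the other genes in cSCC.
Stat2: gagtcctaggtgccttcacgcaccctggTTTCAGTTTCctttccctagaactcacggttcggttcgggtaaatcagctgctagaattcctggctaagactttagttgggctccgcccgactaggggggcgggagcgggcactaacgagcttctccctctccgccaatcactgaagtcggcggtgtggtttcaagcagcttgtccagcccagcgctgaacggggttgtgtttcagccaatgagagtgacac
Isg15: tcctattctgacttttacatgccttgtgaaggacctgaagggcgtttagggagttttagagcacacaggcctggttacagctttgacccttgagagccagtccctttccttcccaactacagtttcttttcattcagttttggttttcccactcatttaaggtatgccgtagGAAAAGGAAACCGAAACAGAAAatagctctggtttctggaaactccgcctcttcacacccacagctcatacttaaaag
Ifit1: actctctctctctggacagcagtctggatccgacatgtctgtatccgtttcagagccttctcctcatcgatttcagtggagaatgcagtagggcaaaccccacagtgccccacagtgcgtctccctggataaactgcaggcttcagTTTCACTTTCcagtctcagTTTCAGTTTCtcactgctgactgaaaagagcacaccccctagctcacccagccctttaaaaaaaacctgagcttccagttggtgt
Rsad2: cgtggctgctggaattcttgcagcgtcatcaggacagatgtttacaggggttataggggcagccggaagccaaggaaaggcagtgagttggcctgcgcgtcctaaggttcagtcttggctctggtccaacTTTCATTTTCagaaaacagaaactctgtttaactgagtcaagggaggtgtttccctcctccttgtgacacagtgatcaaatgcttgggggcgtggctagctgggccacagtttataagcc
Oas3: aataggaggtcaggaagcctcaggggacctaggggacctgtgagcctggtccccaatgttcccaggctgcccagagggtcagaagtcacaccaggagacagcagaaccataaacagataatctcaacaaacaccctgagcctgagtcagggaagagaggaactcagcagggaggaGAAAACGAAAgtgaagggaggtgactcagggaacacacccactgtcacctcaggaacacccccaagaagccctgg
Irf7: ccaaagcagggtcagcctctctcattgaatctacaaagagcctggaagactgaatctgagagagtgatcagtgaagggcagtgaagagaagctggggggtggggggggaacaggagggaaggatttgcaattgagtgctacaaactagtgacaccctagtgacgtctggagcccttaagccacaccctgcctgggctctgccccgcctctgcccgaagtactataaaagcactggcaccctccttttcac

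Matches also lay in the windows of Bst2, Ddx58, Eif2ak2, Ifih1, Ifit3, Oas1a, Oas1g, Phf11a and Trim30a. Of the 14 genes that hold these letters, 8 were higher in AK than in NS, while 2.26% of all genes tested were. Of the 13 matched genes without them, 12 were tested and 6 were higher, namely Dtx3l, Herc6, Ifi44, Oasl2, Samd9l and Xaf1.

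**Figure D1:**
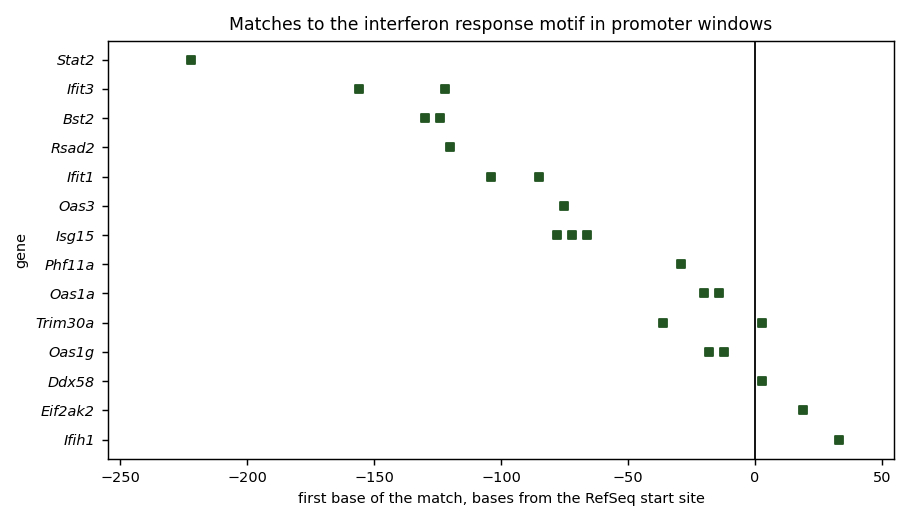
Position of each match to GAAANNGAAA in the promoter windows of the 14 genes that hold it, as the distance in bases of its first base from the RefSeq start site (vertical line at 0). Squares are single matches. Isg15, Ifit1 and Rsad2 have theirs between 120 and 66 bases before the start, Stat2 lies farthest away at 222 bases, and the matches of Ddx58, Eif2ak2 and Ifih1 follow the start.

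Several of the genes are neighbours in the genome (GRCm38, GENCODE M21). Ifit1, Ifit2 and Ifit3 lie within 99.3 kb on chr19:34550694-34650009, and Rsad2 and Cmpk2 lie within 37.1 kb on chr12:26442746-26479837. The 6 OAS genes are all on chromosome 5, and Parp9 and Dtx3l overlap by 458 bases on opposite strands of chromosome 16. The strand used in counting is not given in the sources used here, so reads from this overlap cannot be assigned to either gene. Oas1a shares 40.9% of its 100-base stretches with Oas1g, and Ifit3 shares 31.7% with Ifit3b, so their counts are uncertain.

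Levels differed widely between the genes in NS. Per kilobase of exon, Rtp4 had the highest mean level in NS at 38.9 CPM per kb, followed by Ifi35 at 35.3 and Isg15 at 18.2, whereas Mx1 stood at 0.893 and Oasl1 at 0.200. Of the 35 genes, 24 had their highest mean in AK, 11 in cSCC and 0 in NS. The NS samples were not alike. NS 7 was the highest NS sample for 17 of the 35 genes and NS 8 for 8, while NS 5 was the lowest for 15 and NS 2 for 11. Among AK, AK 15 exceeded every NS sample for 32 genes and AK 16 for 10 genes. In cSCC 18, 28 genes exceeded every NS sample, whereas 5, 9 and 6 genes did so in cSCC 19, 20 and 21. With library size as the only scaling, the count for cSCC 18 was 8 genes and those for cSCC 19, 20 and 21 were 6, 10 and 5, so the lead of cSCC 18 depends on the scaling.

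**Figure D2:**
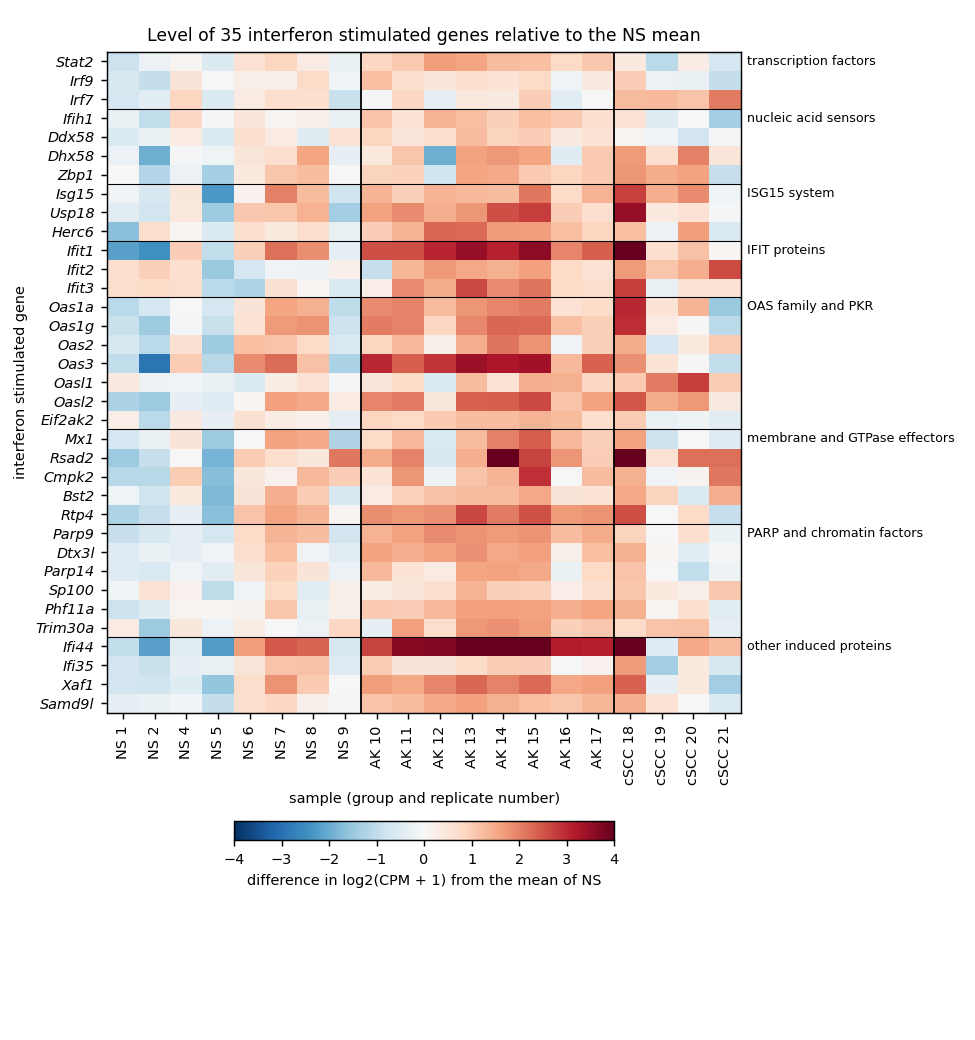
Level of the 35 genes in each sample, as the difference in log2(CPM + 1) from the mean of the 8 NS samples (red higher, blue lower, colours end at 4 in either direction). Rows are grouped by role and columns by group and replicate number. The AK columns are red for nearly all genes, NS 6, 7 and 8 are redder than the other NS, and cSCC 18 stands apart from cSCC 19, 20 and 21.

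The first comparison asked how interferon stimulated genes differ between AK, the lesion that can precede cSCC, and NS. Of 34 tested genes, 17 were higher in AK (edgeR's quasi-likelihood test; DEGs needed an adjusted p under 0.05 plus a change of over 1.5-fold upward or to less than 0.67 of the level), while 2.26% of all 11677 tested genes were. None of them was lower, against 2.38% of all genes. At an unadjusted p under 0.05, 28 were higher and 0 lower, against 1348 higher and 1527 lower of all 11677 genes. DESeq2 called 21 higher and 0 lower, against 3.71% and 5.28% of all genes. With limma voom the counts were 27 and 0, against 4.46% and 4.47%. The median log2 fold change was 1.23, against -0.037 over all tested genes, of which 47.0% were positive. Every AK sample exceeded every NS sample for 5 genes, Eif2ak2, Herc6, Ifi44, Rtp4 and Samd9l, while 0.394% of all tested genes were separated in this way. With library size as the only scaling, Eif2ak2 was no longer separated and the other 4 were, against 0.206% of all tested genes. In bulk tissue, a change in the number of cells of a type and a change in RNA per cell cannot be told apart.

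The calls depended on the samples in the fit, while the direction did not. Without single samples the number of higher genes ranged from 8 to 20, and it was 8 without NS 4, 11 without NS 2, 10 without NS 5, 8 without AK 13 and 9 without AK 15. When all 20 samples shared a fit, 0 genes passed, with 27 of 35 higher and 0 lower at an unadjusted p under 0.05 and a smallest adjusted p of 0.0675. In that fit 5 of all genes were higher and 4 lower. No log2 fold change turned negative in any of 782 refitted values. Dtx3l, Eif2ak2, Herc6, Ifih1, Phf11a, Samd9l and Stat2 passed in each of the 16 fits without 1 sample, and Oas3 passed in 3, Usp18 in 6 and Oasl2 in 7 of them.

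Among the transcription factors, Stat2, a subunit of ISGF3, ranged from 10.4 to 35.9 CPM in NS (median 18.8) and from 34.8 to 64.3 CPM in AK (median 44.4), and was 25.7, 8.79, 23.9 and 11.7 CPM in cSCC 18, 19, 20 and 21. In AK, 6 of 8 samples lay above the highest NS sample, and all cSCC lay within or below the range of NS. The log2 fold change in AK vs. NS was 1.14 ± 0.23 (SE), or 2.20-fold (adjusted p = 0.0190). Irf9, the DNA-binding part of ISGF3, ranged from 31.00 to 105 CPM in NS (median 66.4) and from 54.5 to 143 CPM in AK (median 94.7), and was 124, 52.3, 50.1 and 31.1 CPM in cSCC 18, 19, 20 and 21. Its groups overlapped in most samples, and it did not pass (log2 fold change 0.52 ± 0.22 (SE), adjusted p = 0.157). Irf7, which drives alpha interferon genes once nucleic acid sensors are active, ranged from 2.34 to 10.2 CPM in NS (median 5.12) and from 3.60 to 11.02 CPM in AK (median 5.98), and was 13.9, 14.1, 12.5 and 25.1 CPM in cSCC 18, 19, 20 and 21. Here NS and AK shared a range, at 0.21 ± 0.37 (SE) on the log2 scale, and the 4 cSCC were above the other samples. With library size as the only scaling, cSCC 18 stood at 7.06 CPM, below the highest NS (11.6 CPM) and the highest AK sample (11.6 CPM).

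The nucleic acid sensors find RNA or DNA in the wrong place. Ifih1 (MDA5), a helicase that detects long double-stranded RNA, ranged from 22.9 to 82.4 CPM in NS (median 47.3) and from 69.8 to 124 CPM in AK (median 101), and was 69.5, 32.96, 45.5 and 17.9 CPM in cSCC 18, 19, 20 and 21. It was 1.95-fold higher in AK than in NS (log2 0.96 ± 0.21 (SE), adjusted p = 0.0190), with 6 of 8 AK samples above all NS. Ddx58 (RIG-I), which detects RNA with a triphosphate end, ranged from 10.6 to 25.9 CPM in NS (median 16.9) and from 20.98 to 39.3 CPM in AK (median 28.3), and was 17.4, 14.5, 9.10 and 15.7 CPM in cSCC 18, 19, 20 and 21. Its difference in AK of 0.73 ± 0.22 (SE) on the log2 scale missed the threshold (adjusted p = 0.0628), although 5 AK samples exceeded every NS sample. Zbp1, a sensor of left-handed nucleic acid linked to cell death, ranged from 4.05 to 28.6 CPM in NS (median 11.6) and from 6.31 to 36.9 CPM in AK (median 24.1), and was 41.7, 34.7, 37.5 and 5.62 CPM in cSCC 18, 19, 20 and 21. Dhx58 (LGP2), a helicase related to both RNA sensors, had a mean of 3.75 ± 3.21 CPM (SD) in NS and 6.75 ± 4.44 CPM in AK and did not pass, and its 0 counts in AK 12 are under what that library of 867219 counts could show.

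The ISG15 system attaches the ubiquitin-like protein Isg15 to other proteins and removes it. Isg15 itself ranged from 1.12 to 41.5 CPM in NS (median 9.58) and from 16.8 to 44.6 CPM in AK (median 25.4), and was 68.8, 27.7, 37.5 and 8.27 CPM in cSCC 18, 19, 20 and 21. Only 1 AK sample lay above the highest NS sample, NS 7, and the log2 fold change of 0.90 ± 0.45 (SE) did not pass (adjusted p = 0.227). Usp18, which removes Isg15 and restrains the interferon receptor, ranged from 5.40 to 43.8 CPM in NS (median 17.2) and from 26.5 to 116 CPM in AK (median 54.9), and was 194, 21.5, 25.03 and 15.2 CPM in cSCC 18, 19, 20 and 21. It was 2.94-fold higher in AK (log2 1.56 ± 0.43 (SE), adjusted p = 0.0409). Herc6, the mouse ligase for Isg15, was 2.90-fold higher, with means of 33.04 ± 13.3 CPM (SD) in AK against 11.3 ± 5.38 CPM in NS, without overlap (adjusted p = 0.0190).

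The IFIT proteins bind viral RNA that lacks the marks of the cell's own messages. Ifit1 ranged from 3.19 to 103 CPM in NS (median 29.6) and from 86.9 to 268 CPM in AK (median 162), and was 449, 34.3, 50.1 and 22.8 CPM in cSCC 18, 19, 20 and 21. All AK samples but 1 lay above the highest NS sample, and cSCC 18 exceeded all other samples with the other cSCC in the range of NS. The lead of cSCC 18 depended on the scaling, since by library size alone it stood at 228 CPM, below the highest AK sample at 281 CPM. Ifit1 was 4.47-fold higher in AK (log2 2.16 ± 0.54 (SE), adjusted p = 0.0307). Ifit3 ranged from 6.76 to 28.97 CPM in NS (median 22.3) and from 20.6 to 111 CPM in AK (median 57.3), and was 122, 13.6, 26.2 and 25.97 CPM in cSCC 18, 19, 20 and 21. It was 2.82-fold higher in AK (adjusted p = 0.0290), and cSCC 18 again was the highest sample. By library size alone, cSCC 18 had 61.8 CPM of Ifit3, below the highest AK sample at 116 CPM. Ifit2 had a mean of 16.9 ± 7.50 CPM (SD) in AK and 7.86 ± 4.22 CPM in NS and did not pass (adjusted p = 0.118).

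**Figure D3:**
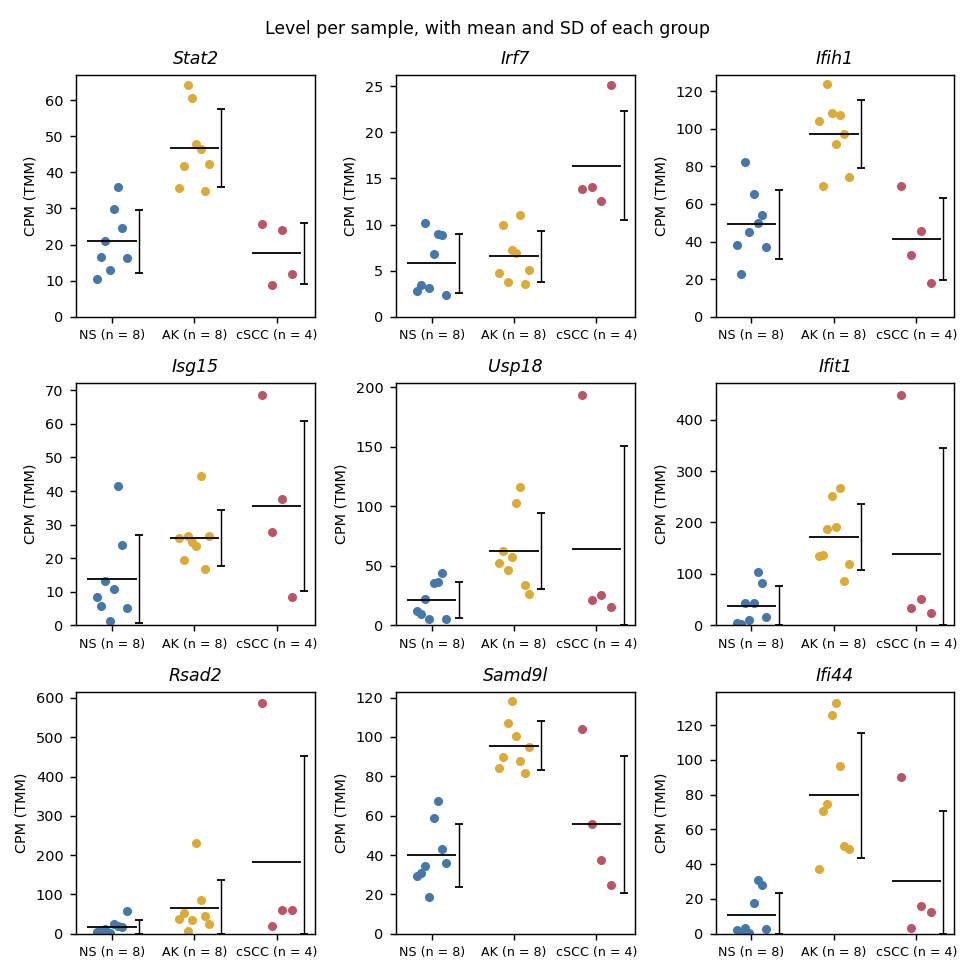
Level in CPM with TMM scaling of 9 of the genes in each sample (points) of NS, AK and cSCC, with the mean (line) and SD (bar, drawn no lower than 0) of each group. Stat2, Ifih1, Samd9l and Ifi44 are highest in AK, Irf7 is highest in the 4 cSCC (with library size as the only scaling cSCC 18 falls to 7.06 CPM), and single cSCC samples lead for Usp18, Ifit1 and Rsad2. Scaled by library size alone, cSCC 18 leads for Rsad2 but lies below the highest AK sample for Usp18 and Ifit1.

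The OAS enzymes make short adenylate chains that switch on the RNA-cutting enzyme RNase L, and Eif2ak2 (PKR) halts protein synthesis when it meets double-stranded RNA. Of the 6 tested in AK vs. NS, 3 were higher, while 2.26% of all genes tested were. Oas3 was 4.47-fold higher, with means of 54.7 ± 22.3 CPM (SD) in AK against 12.4 ± 12.9 CPM in NS (adjusted p = 0.0435). Oasl2, an OAS-like protein, ranged from 5.79 to 55.5 CPM in NS (median 15.8) and from 23.96 to 113 CPM in AK (median 72.05), and was 101, 50.1, 59.2 and 22.5 CPM in cSCC 18, 19, 20 and 21. It was 3.05-fold higher in AK (adjusted p = 0.0364), with 5 AK samples above every NS sample. Eif2ak2 was 2.02-fold higher without overlap, with means of 45.9 ± 7.88 CPM (SD) in AK against 22.6 ± 7.72 CPM in NS (adjusted p = 0.0190). Oas2 ranged from 0.900 to 10.7 CPM in NS (median 4.56) and from 3.60 to 21.7 CPM in AK (median 10.3), and was 13.2, 2.20, 5.69 and 9.26 CPM in cSCC 18, 19, 20 and 21. It did not pass (log2 1.11 ± 0.47 (SE)), nor did Oas1a (1.30) and Oas1g (1.36), whose reads overlap. Oasl1, which limits the production of Irf7 protein in mice, was too low to be tested in both comparisons with NS.

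Among the effectors at membranes and the GTPases, Mx1, which traps viral particles, ranged from 0.225 to 9.09 CPM in NS (median 2.00) and from 1.26 to 16.9 CPM in AK (median 7.08), and was 9.03, 0.879, 2.28 and 1.32 CPM in cSCC 18, 19, 20 and 21. The AK and NS ranges overlapped and it did not pass (log2 1.21 ± 0.58 (SE)). Rsad2 (viperin), a radical enzyme that makes a chain-ending nucleotide, ranged from 2.70 to 57.2 CPM in NS (median 14.8) and from 7.57 to 232 CPM in AK (median 40.4), and was 587, 18.9, 61.4 and 61.2 CPM in cSCC 18, 19, 20 and 21. AK 14 and cSCC 18 stood far above the other samples of their groups, and the AK difference of 1.83 ± 0.60 (SE) on the log2 scale missed the threshold (adjusted p = 0.0756). Cmpk2, a mitochondrial nucleotide kinase next to Rsad2, did not pass either (1.30). Bst2 (tetherin), which ties budding virus to the cell, ranged from 1.35 to 21.7 CPM in NS (median 8.09) and from 9.36 to 22.8 CPM in AK (median 16.1), and was 22.9, 14.1, 4.55 and 21.5 CPM in cSCC 18, 19, 20 and 21, and did not pass (log2 0.73 ± 0.40 (SE)). Rtp4 was 3.11-fold higher, with means of 259 ± 74.7 CPM (SD) in AK against 82.9 ± 65.01 CPM in NS, without overlap (adjusted p = 0.0286).

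Of the PARP and chromatin factors, 4 of 6 were higher in AK, while 2.26% of all genes tested were. Parp9 and its partner Dtx3l, a ubiquitin ligase, work as a complex and were 2.54-fold and 2.53-fold higher (adjusted p = 0.0282 and 0.0156). Phf11a, a PHD finger protein, ranged from 1.76 to 9.73 CPM in NS (median 4.34) and from 8.89 to 14.8 CPM in AK (median 13.3), and was 12.5, 4.39, 6.83 and 2.65 CPM in cSCC 18, 19, 20 and 21. In AK it was 2.77-fold higher (log2 1.47 ± 0.30 (SE), adjusted p = 0.0190). Trim30a, a TRIM family protein, was 2.29-fold higher (adjusted p = 0.0322), whereas Parp14 (0.98) and Sp100 (0.64), a nuclear body protein, did not pass.

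The largest fold change of all 35 genes in AK belonged to Ifi44, a cytoplasmic protein with a GTP-binding motif. It ranged from 0.225 to 31.1 CPM in NS (median 3.08) and from 37.2 to 133 CPM in AK (median 72.6), and was 90.3, 3.08, 15.9 and 12.7 CPM in cSCC 18, 19, 20 and 21. The lowest AK sample lay above the highest NS sample, and the log2 fold change was 2.90 ± 0.66 (SE), or 7.49-fold (adjusted p = 0.0236). Samd9l, a restrictor of virus growth, had the smallest adjusted p of the set (0.00966), with all NS samples between 18.9 and 67.3 CPM and all AK samples between 81.5 and 118 CPM. Xaf1, which binds the apoptosis inhibitor XIAP, was 2.89-fold higher (adjusted p = 0.0282), and Ifi35 did not pass (0.44).

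Cell type markers were read beside these values. In AK vs. NS, 63 of 64 listed markers were in the table, 48 were tested, and edgeR called 0 of them. Over all genes tested, 2.26% were called higher and 2.38% lower, so 0 of 48 is near these shares. At an unadjusted p under 0.05, 6 markers were higher and 9 lower, while 24.6% of all genes passed in either direction. DESeq2 called 1 marker higher and 1 lower, and limma voom 4 and 2. Of 4 natural killer cell markers, only Gzma, a protease also made by T cells, was tested, with medians of 1.24 CPM in NS and 35.8 CPM in AK (2.02 ± 0.91 (SE) on the log2 scale, not called), and the other 3 summed to medians of 1.44 CPM in NS and 2.39 CPM in AK. The 4 leukocyte markers went both ways, with log2 fold changes of 0.90 for Cd53 and 0.66 for Ptprc against -0.62 for Laptm5 and -0.83 for Coro1a. All 5 skeletal muscle markers had negative log2 fold changes, from -1.79 to -0.95, with 2 at an unadjusted p under 0.05, and their sum had medians of 2557 CPM in NS and 799.6 CPM in AK. Markers of plasmacytoid dendritic cells, the main makers of alpha interferon, summed to at most 9.89 CPM in NS and 9.60 CPM in AK. The part of these cells in the result was not tested.

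**Figure D4:**
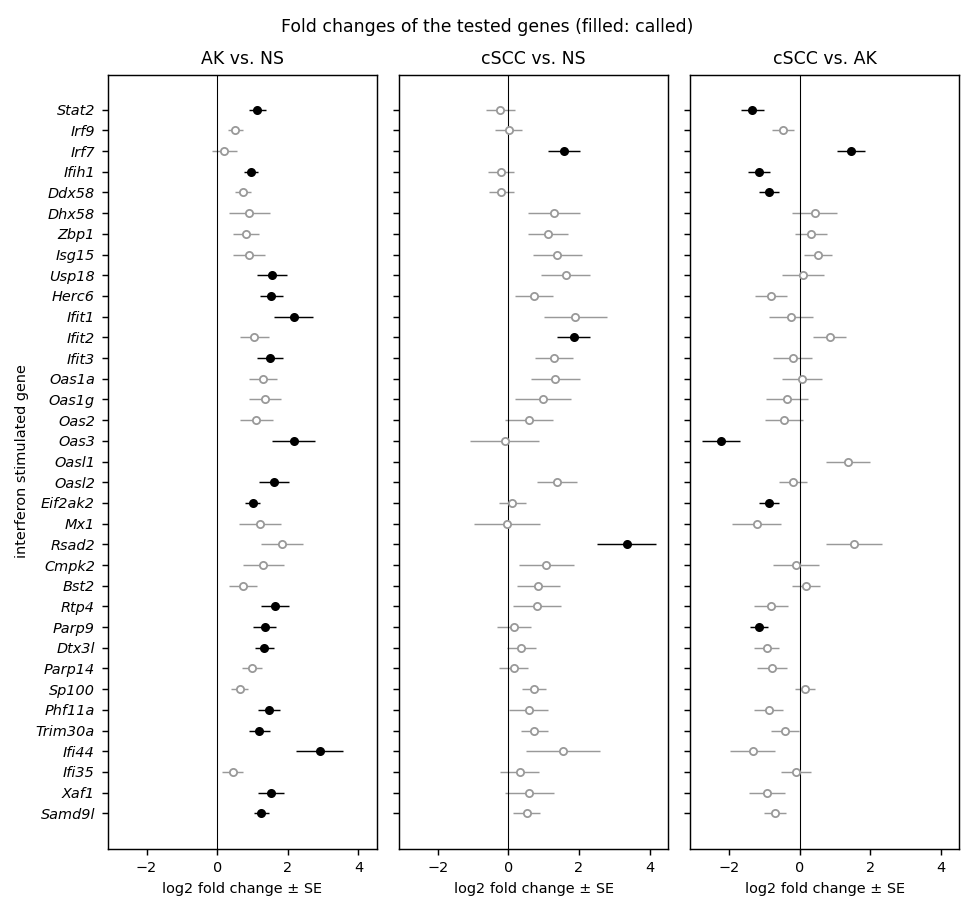
Log2 fold change with SE of each tested gene for AK vs. NS (left panel), cSCC vs. NS (middle) and cSCC vs. AK (right). Filled points are DEGs and open points are not. All 34 points lie right of 0 in AK vs. NS, with Ifi44 farthest at 2.90, while cSCC vs. AK has Irf7 on the right and 6 filled points on the left.

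The comparison of cSCC with NS asked how the genes stand in the tumors. Of 34 tested genes, 3 were higher in cSCC, while 11.7% of all 12097 tested genes were, and 0 were lower, against 7.65% of all genes. At an unadjusted p under 0.05, 7 were higher and 0 lower, against 2486 higher and 1630 lower of all 12097 genes. DESeq2 called 3 higher and 0 lower, against 12.3% and 10.3% of all genes. With limma voom the counts were 0 and 0, against 6.35% and 4.46%. The median log2 fold change was 0.74, against 0.14 over all tested genes. Without cSCC 18 the median of the set was 0.020, and with library size as the only scaling it was 0.33 against -0.17 over all genes. AK and cSCC were compared with the same 8 NS samples, so these 2 comparisons are not independent.

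Irf7 was 2.99-fold higher (log2 1.58 ± 0.46 (SE), edgeR adjusted p = 0.0284), and each of the 4 cSCC lay above every NS sample, as in 2.7% of all tested genes. Ifit2 was 24.3, 15.8, 20.5 and 47.3 CPM in cSCC 18, 19, 20 and 21, against 1.80 to 14.2 CPM in NS (median 7.15). All 4 cSCC lay above the highest NS sample, and the gene was 3.60-fold higher (log2 1.85 ± 0.47 (SE), adjusted p = 0.0153). Rsad2 was 10.2-fold higher (log2 3.35 ± 0.83 (SE), adjusted p = 0.0140), with 3 of the 4 cSCC above every NS sample. Rsad2 rested on cSCC 18, without which its log2 fold change was 1.43 and it did not pass. Irf7 and Ifit2 did not pass without cSCC 21, the sample with heart muscle markers, at 1.27 and 1.39, and then 1 gene was higher, and Irf7 did not pass without NS 5 (1.49). With library size as the only scaling, neither passed, at 1.27 and 1.47, and cSCC 18 had 7.06 CPM of Irf7 and 12.4 CPM of Ifit2, below the highest NS samples at 11.6 and 15.7 CPM. No gene of the set was then above every NS sample in all cSCC, while 0.546% of all tested genes were. The remaining 31 genes spanned -0.23 (Stat2) to 1.89 (Ifit1).

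In the comparison of cSCC with AK, most of the set had a negative fold change. Of 35 tested genes, 6 were lower in cSCC, while 8.34% of all 12032 tested genes were, and 1 was higher, against 16% of all genes. The median log2 fold change was -0.42, against 0.17 over all tested genes, and 11 of the 35 values were positive. Stat2, Ifih1, Ddx58 and Parp9 were lower in every cSCC sample than in every AK sample, a pattern that 6.84% of all tested genes showed, and these 4 kept it among 10 such genes with library size as the only scaling (8.78% of all tested genes).

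Stat2 was 2.53-fold lower in cSCC than in AK (log2 -1.34 ± 0.32 (SE), edgeR adjusted p = 0.0104). Parp9 was 75.02, 39.5, 63.7 and 32.9 CPM in cSCC 18, 19, 20 and 21, against 94.7 to 150.1 CPM in AK (median 128), and was 2.21-fold lower (log2 -1.15 ± 0.25 (SE), adjusted p = 0.00610). These 2 genes passed under every alternative tried. Ifih1 was 2.21-fold lower (log2 -1.15 ± 0.30 (SE), adjusted p = 0.0153), and Oas3 had the largest difference at -2.22 ± 0.53 (SE) (adjusted p = 0.0101), with 25.7, 10.1, 6.83 and 2.81 CPM in cSCC 18, 19, 20 and 21. Both passed in all 12 fits without 1 sample, but neither passed without cSCC 20 and 21 together (-0.87 and -1.59). Oas3 also did not pass with limma voom (-2.39). Ddx58 (-0.87 ± 0.28 (SE), adjusted p = 0.0356) passed in 7 of the 12 but not without cSCC 20, and Eif2ak2 (-0.87 ± 0.29 (SE), adjusted p = 0.0442) in 2 but not without cSCC 20 or without cSCC 21. Irf7 was 2.74-fold higher (log2 1.45 ± 0.39 (SE), adjusted p = 0.0162), the 4 cSCC lay above every AK sample as in 3.33% of all tested genes, and it did not pass without cSCC 21 (1.02). Irf7 also did not pass with library size as the only scaling (1.15), where cSCC 18 lay in the range of AK, with limma voom (1.15), without the filter on low counts (1.22) or without cSCC 20 and 21 together (1.12).

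The number of lower genes depended on which cSCC were in the fit. Without cSCC 18, 18 genes were lower in cSCC than in AK and the median was -1.14, while 13.1% of all genes tested then were lower and their median was 0.11. With library size as the only scaling, 13 were lower and 0 higher, while 11.3% and 8.49% of all genes tested were. The median was then -0.90 against -0.089 over all genes. Without cSCC 20 and 21 together, 2 of 35 were lower and 0 higher, while 5.9% and 6.71% of all genes tested were. The count of lower genes was then near the share over all genes, and the median was -0.20. In cSCC vs. AK 18 of 50 tested cell type markers were higher and 4 lower, while 16% and 8.34% of all genes tested were, and 8 of the 18 were markers of heart muscle, skeletal muscle or lung epithelium. Of the 5 keratinocyte markers, Krt1 (-3.02) and Krt10 (-3.12) were among the lower, while 2 had positive log2 fold changes, up to 0.63. Neither Krt1 nor Krt10 passed without cSCC 20, and Krt1 did not pass without cSCC 19. Among the 18 higher markers, Csf3r of neutrophils (3.78) passed in all 12 fits without 1 sample, and Kdr of endothelium (3.39) did not pass without cSCC 21 (0.82). The summed neutrophil markers were 1126 to 6283 CPM in cSCC and 323 to 1654 CPM in AK, most of it S100a8, which keratinocytes can also make and which reached 6151 CPM in cSCC 18. The other 4 neutrophil markers summed to 133 to 335 CPM in cSCC, with the highest value in cSCC 20, and to 43.6 to 131 CPM in AK. The summed T cell markers were 4.14 to 53.5 CPM in cSCC and 28.8 to 169.9 CPM in AK. Their part in the result was not tested.

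**Figure D5:**
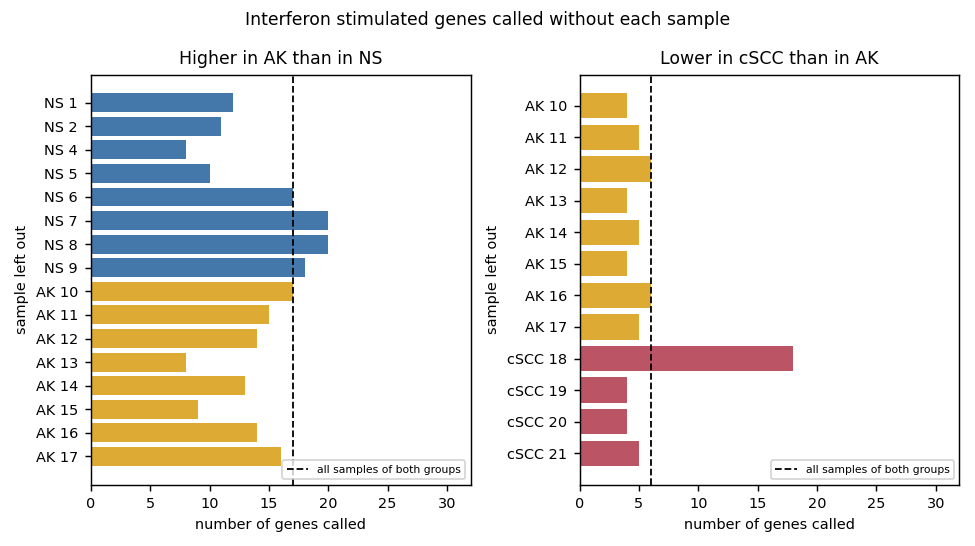
Number of interferon stimulated genes called when 1 sample is left out (bars, coloured by the group of that sample) and with all samples of both groups (dashed line), for genes higher in AK than in NS (left) and lower in cSCC than in AK (right). The left bars run from 8 to 20 around the 17 of the full comparison, and the right bars run from 4 to 6 except for 18 without cSCC 18.

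Upstream of the set, the interferon genes themselves were close to undetected. Of 20 ligand genes measured, 16 had no count in any sample, among them Ifnb1 and Ifne. Ifnk, the keratinocyte interferon, had 30 counts in all over 6 of 8 AK samples, 1 count in NS and 1 in cSCC. Ifng, the type II interferon of T and natural killer cells, ranged from 0 to 2.25 CPM in NS (median 0.868) and from 1.20 to 8.45 CPM in AK (median 3.96), and was 0, 2.64, 2.28 and 0 CPM in cSCC 18, 19, 20 and 21. Both were too low for the test of AK vs. NS. In a fit without the filter on low counts, edgeR called Ifnk higher in AK (adjusted p = 0.0322) and did not call Ifng (log2 2.18 ± 0.68 (SE), adjusted p = 0.0865).

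No receptor chain passed in AK vs. NS. Ifnar1 ranged from 9.90 to 29.2 CPM in NS (median 19.4) and from 1.26 to 38.3 CPM in AK (median 17.6), and was 26.4, 29.4, 21.6 and 42.7 CPM in cSCC 18, 19, 20 and 21. Its log2 fold change was 0.065 ± 0.34 (SE) in AK vs. NS and 0.73 ± 0.31 (SE) in cSCC vs. NS, and Ifnar2 stood at 0.31 ± 0.26 (SE) and 0.61 ± 0.34 (SE). In AK vs. NS 0 of 6 receptor genes passed by edgeR, while 2.26% of all genes tested were higher and 2.38% lower. With so few genes, 0 calls are near these shares. At an unadjusted p under 0.05 the count was also 0, against 24.6% of all genes, and it was 0 by DESeq2 and limma voom. In cSCC, the type III receptor chain Ifnlr1 was lower than in NS (-1.92), passing in 4 of 12 fits without 1 sample. The type II chain Ifngr2 was higher than in AK (2.11), with 31.3, 41.3, 29.6 and 317 CPM in cSCC 18, 19, 20 and 21, and did not pass without cSCC 21 (0.30).

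Of 13 signal transducers tested in AK vs. NS, 2 were higher and 0 lower (2.26% and 2.38% of all genes tested), with 3 and 2 at an unadjusted p under 0.05 and 2 and 0 by both DESeq2 and limma voom. Irf1, a transcription factor that responds to type I and type II interferon, was higher in AK (0.88) and in cSCC (1.26) than in NS, the latter not without cSCC 19. Jak2, a receptor kinase, was higher in AK (0.77), and Socs3, a brake on cytokine signaling, was higher in cSCC than in NS (1.71) and in AK (1.32), in neither without cSCC 19. Of 15 tested sensors and adaptors, 4 were higher and 0 lower in AK than in NS at an unadjusted p under 0.05. By edgeR's call, 2 were higher and 0 lower (2.26% and 2.38% of all genes tested). They were Samhd1 (1.31), which breaks down nucleotides, and Tlr3 (1.09), an endosomal RNA receptor that passed in 4 of 16 fits without 1 sample. Myd88, the Toll-like receptor adaptor, was higher in cSCC than in NS (0.80) and in AK (0.82) but not without cSCC 21 (0.74 and 0.66), and Trim25, which activates RIG-I, was lower in cSCC than in AK (-1.40) under every alternative tried.

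Other genes known to respond to interferon were read from a wider list. Of 38 tested in AK vs. NS, 10 were higher and 0 lower (2.26% and 2.38% of all genes tested), with 18 and 0 at an unadjusted p under 0.05, 11 and 0 by DESeq2 and 13 and 0 by limma voom, and the median log2 fold change was 0.67. They were Ifi47 (1.90), Phf11d (1.82), Phf11b (1.69), Ddx60 (1.34), Rnf213 (1.30), Trim30d (1.16), Lgals3bp (1.14), Slfn8 (1.10), Trim12c (1.09) and Nmi (1.07). Lgals3bp and Trim30d passed in 3 and Nmi in 6 of 16 fits without 1 sample. In cSCC vs. NS, 6 of 39 were higher and 1 lower, while 11.7% and 7.65% of all genes tested were, with Ube2l6 (3.33), an enzyme that loads Isg15, and Isg20 (3.26), an exonuclease, at the top, followed by Helz2 (1.95), Uba7 (1.80), Lgals9 (1.10) and Ifi203 (1.01). Ube2l6 was 2442, 169, 282 and 420.4 CPM in cSCC 18, 19, 20 and 21 and did not pass without cSCC 18 (1.85). Isg20 was 295, 95.4, 48.9 and 28.8 CPM in cSCC 18, 19, 20 and 21 and passed without cSCC 18 (2.23). Helz2 and Uba7 did not pass without cSCC 21 (1.79 and 1.11), nor Helz2 without cSCC 20, and Uba7 and Ifi203 passed in 4 and 3 of 12 fits without 1 sample. Nlrc5, the activator of MHC class I genes, was lower in cSCC than in NS (-2.06) and in AK (-2.32) under every alternative tried. In cSCC vs. AK, Isg20 (2.24), Helz2 (1.85) and Lgals9 (0.89) were higher and Trim12c (-1.39) was lower. Without cSCC 18 the first 3 did not pass (1.19, 1.80 and 0.74). Of the 12 fits without 1 sample, Isg20 passed in 11, Lgals9 in 8 and Helz2 in 2. Helz2 also did not pass without cSCC 20 (1.63) or without cSCC 21 (1.58).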

How the data were processed

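The 20 mouse libraries (8 NS, 8 AK, 4 cSCC) were grouped by their labels. The submitters' processing notes name Trimmomatic 0.36, HISAT2 2.0.5 and featureCounts 1.5.2 and the builds hg19 and mm9, whereas the paper names GRCm38 and StringTie, so the route to the table is uncertain. The authors deposited raw counts per gene symbol, without normalization. The labels give no batch. All 62 pairs of samples within a group differed by more than sampling noise (chi-square of the counts at least 11.3 times its degrees of freedom).

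Levels are CPM with TMM factors over all samples (edgeR 4.0.16, R 4.3.3). Each comparison used the samples of its groups, genes kept by filterByExpr, edgeR's quasi-likelihood test and Benjamini-Hochberg adjustment over all genes tested. DEGs needed an adjusted p under 0.05 plus a ratio of over 1.5 or under 0.67. The SE is the log2 fold change divided by the square root of F. The test was tried on simulated data first. Alternatives were DESeq2 1.42.0, limma 3.58.1 voom with sample weights, other scalings and filters, no fold change limit, all samples in 1 fit, and leaving out samples. The set, the pathway and marker lists and the genes shown in full were chosen with earlier results of these data known, and named genes are all members plus called genes of those lists. One gene of the signal transducer list is not reported here.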

Additional observations from a re-analysis of the deposited data

Results flagged for a closer look

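In each group of 4 to 8 samples, the gap between the most extreme sample and its neighbour was set against the group's range on the log2(CPM + 1) scale. Of 105 groups (35 genes in NS, AK and cSCC), 7 had a sample beyond Dixon's 95% critical value, and chance flags about 1 in 20 groups. In cSCC 21, Irf7 was high at 25.1 CPM against 12.5 to 14.1 CPM in the other cSCC, and Zbp1 was low at 5.62 CPM against 34.7 to 41.7 CPM. In cSCC 18, Eif2ak2 was high at 43.8 CPM against 15.5 to 18.2 CPM. Among AK, Zbp1 was low in AK 12 at 6.31 CPM against 22.2 to 36.9 CPM, Ifit2 was low in AK 10 at 3.14 CPM against 10.7 to 25.2 CPM, and Dtx3l was low in AK 16 at 34.8 CPM against 69.3 to 106.6 CPM. Isg15 was high in AK 15 at 44.6 CPM against 16.8 to 26.5 CPM.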

How the results depend on the processing

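In AK vs. NS no fold change of the set reversed in 782 refitted values. In cSCC vs. NS 44 of 676 and in cSCC vs. AK 41 of 698 reversed, in 14 and 12 genes, none of them a called gene. Depth limited low genes such as Oasl1 and Mx1. No paired analysis was possible because the replicate numbers are not shared between groups and the labels give no mouse. The cause of the changes below was not tested.

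The number of genes higher in AK than in NS, 17, was 27 with limma voom and 0 with all 20 samples in 1 fit, and 8 to 20 without 1 sample. Genes higher in cSCC than in NS, 3, were 1 with library size alone, 0 with limma voom, 1 without cSCC 20 and 21 together, and 1 to 4 without 1 sample, with 1 without cSCC 21 and 2 without cSCC 18 or NS 5. Genes higher in cSCC than in AK, 1, were 0 with library size alone, limma voom, no filter on low counts or without cSCC 20 and 21 together, and 0 to 1 without 1 sample. Genes lower in cSCC than in AK, 6, were 13 with library size alone (11.3% of all genes) and 2 without cSCC 20 and 21 together (5.9%). They were 4 to 18 without 1 sample. The median of the set without 1 sample was 0.020 to 1.02 in cSCC vs. NS and -1.14 to -0.14 in cSCC vs. AK.

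Reversals are listed only for called genes and for genes shown in every sample, so some reversing genes are not named. Those in cSCC vs. NS were, on the log2 scale, Irf9 at -0.44 with library size alone, -0.017 with upper quartile factors, -0.029 with limma voom, -0.031 without the filter and -0.053 with all samples in 1 fit, Mx1 at 0.014 with DESeq2, 0.26 with limma voom and 0.50 without cSCC 20 and 21, and Ifih1 at 0.071 without these 2. In cSCC vs. AK, Bst2 was -0.21 with library size alone, -0.21 with limma voom and -0.029 without the filter, Usp18 was -0.59, -0.74 and -0.031 there, and without cSCC 20 and 21 Ifit1 was 0.53, Ifit3 0.28 and Oasl2 0.15. Without 1 sample, cSCC vs. NS ranged from -0.53 to 0.24 for Irf9, -0.0730 to 2.31 for Ifit1, -0.00821 to 1.95 for Usp18, -1.22 to 0.30 for Mx1 and -0.61 to 0.043 for Ifih1. In cSCC vs. AK it ranged from -1.58 to 0.37 for Usp18, -1.32 to 0.11 for Ifit3, -0.12 to 0.46 for Bst2, -0.0940 to 0.78 for Isg15, -0.43 to 2.12 for Rsad2 and -2.25 to 0.068 for Ifit1.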

Other observations

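Without the filter on low counts, Oasl1 was higher in cSCC than in NS in edgeR (log2 fold change 2.98 ± 0.79 (SE), adjusted p = 0.0204), with 2.08, 5.27, 9.10 and 1.98 CPM in cSCC 18, 19, 20 and 21 and at most 1.22 CPM in NS. With library size as the only scaling, cSCC 18 stood at 1.06 CPM, below the highest NS sample at 1.21 CPM. The gene was chosen for mention after its values were seen. Of the remaining ligand genes, Ifnz had 2 counts in 1 cSCC sample, and Ifnl3 had 2 counts in NS and 4 in AK.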
